A study of Mus musculus with 6 samples.

Results

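Choroid plexus epithelial genes were followed through ribosome-bound mRNA of the adult mouse dentate gyrus. The 10 genes are Ttr, Folr1, Kl, Clic6, Kcnj13, Sostdc1, Otx2, Kcne2, Calml4 and Krt18, of 37620 genes counted. They were chosen by name with their measured values in these samples known, namely their levels, how closely they varied together and their difference between genotypes within each library series. Those measurements are therefore given as descriptions, without a test.

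The choroid plexus is a folded epithelium in the brain ventricles, and it secretes the cerebrospinal fluid. Its cells move ions, water and nutrients from blood to fluid, and they release carrier proteins and growth factor modulators into it. The epithelium is continuous with the ependyma that lines the ventricles and sits on a vascular stroma, while the dentate gyrus itself is a layer of granule neurons with neural stem cells at its inner edge.

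The study asked how the transcription factor Klf9 controls radial-glial-like neural stem cells (RGLs), the adult stem cells of the dentate gyrus. Both genotypes carried Gli1-CreERT2, a tamoxifen-activated Cre under the Gli1 gene, and Rpl22HA f/+, a ribosomal protein that gains an HA tag once Cre has acted. They differed in Klf9 +/+ or Klf9 f/f, so that tamoxifen tagged ribosomes in both and recombined Klf9 only in the latter. Mice of 2 to 3 months received 3 injections of 250 mg/kg tamoxifen at 12 hr intervals, and 4 days after the last one tagged ribosomes were pulled down with an antibody to HA. Each of the 3 samples per genotype pooled 6 dentate gyri from 3 mice. By the library names, each genotype has its replicates 1 and 2 in library series 22 and its replicate 3 in series 32.

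Each sample held between 21594714 and 66343759 reads counted on genes, and both series 32 samples were below all those of series 22. Levels are given as CPM, counts scaled to library size, after TMM scaling, a correction for unequal library composition. Log2 fold changes give Klf9 f/f relative to Klf9 +/+, fitted in edgeR with the library series as a term. Values of a genotype are listed in the order of replicates 1, 2 and 3, the last being its series 32 sample. Klf9, the targeted gene, stood at 200.9, 203.9 and 139.0 CPM in the Klf9 +/+ samples against 114.3, 121.3 and 120.0 CPM in the Klf9 f/f samples, with no overlap. Its log2 difference was -0.78 in series 22 but only -0.21 in series 32. Gli1 was detected in every sample, between 2.92 and 9.62 CPM, and the RGL transcript Hopx averaged 864.8 CPM over the samples.

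All 10 choroid plexus genes were lower in Klf9 f/f than in Klf9 +/+ on average, both in series 22 and in series 32. Their median log2 fold change was -2.73, while that of all 15056 genes tested was 0.0. The median difference was -2.38 in series 22, with a range from -5.54 to -0.68, and -2.93 in series 32, with a range from -3.52 to -1.91. In 9 of the 10 genes, Kl being the exception, the Klf9 f/f samples of a series were all below its Klf9 +/+ samples, against 5.53% of all genes tested. Across both series, only Calml4 kept the genotypes apart, against 1.35% of all genes tested. All 10 genes passed the filter on low counts, and 4 of them (Ttr, Kl, Clic6 and Kcnj13) were above 1 CPM in all 6 samples. Nothing is read from these shares, because this contrast was among the values that selected the genes.

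Samples of one genotype also differed from each other. All 10 genes were highest in Klf9 +/+ replicate 3, and all 10 were higher in Klf9 +/+ replicate 2 than in replicate 1, by a median of 1.92 on the log2 scale (range 0.24 to 3.90). The corresponding gap between the Klf9 f/f samples of series 22 had a median of 0.30 (range -1.47 to 0.69). For 6 genes the difference between genotypes in series 22 was larger than the gap between the Klf9 +/+ samples, and for 4 genes (Folr1, Kl, Clic6 and Kcne2) it was smaller. The lowest level was in Klf9 f/f replicate 1 for 7 genes and in Klf9 f/f replicate 2 for 3. For 9 genes the Klf9 f/f sample of series 32 exceeded Klf9 +/+ replicate 1 of series 22, so the order between genotypes held within a library series and not across both. These are bulk samples, in which fewer choroid plexus cells and less RNA per cell cannot be told apart. RNA from before the pull-down is not among the 6 samples, so how much of this RNA came from tagged ribosomes was not tested.

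**Figure D1:**
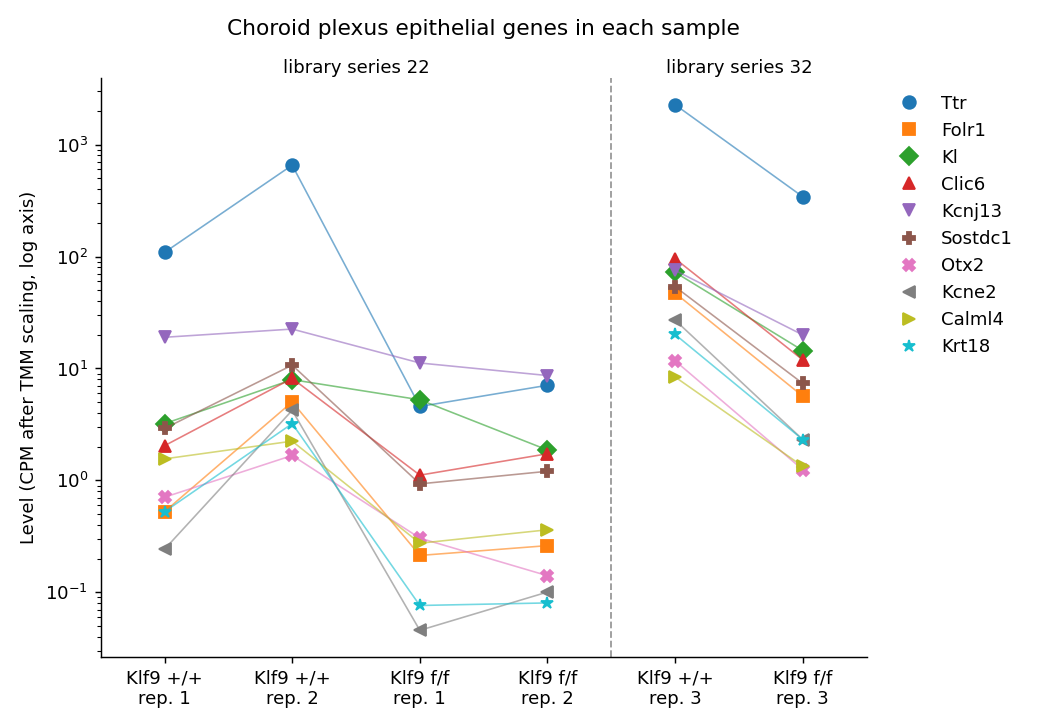
Level of each of the 10 choroid plexus epithelial genes in each sample, in CPM after TMM scaling on a log axis, with the 2 library series separated by a dashed line. Lines only join the values of 1 gene; all 10 genes are highest in Klf9 +/+ replicate 3 and lowest in Klf9 f/f replicate 1 or 2.

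Among the secreted products, Ttr encodes transthyretin, which carries thyroid hormone and retinol-binding protein in the cerebrospinal fluid. The gene (ENSMUSG00000061808) spans mm9 chromosome 18 from 20823751 to 20832825 on the plus strand. Ttr reached 109, 655 and 2273 CPM in Klf9 +/+ but 4.58, 7.08 and 342 CPM in Klf9 f/f. The genotypes were thus separate within each series, and the Klf9 f/f sample of series 32 lay above the lowest Klf9 +/+ sample. These values rested on 300 to 69565 reads per sample, and Ttr moved from the 16th most counted gene in Klf9 +/+ replicate 3 to the 11762nd in Klf9 f/f replicate 1. The fitted log2 fold change, -4.99 (standard error, SE, 0.89), was the most negative of the 10 in this fit. Without the series term it was -3.10, smaller in size than that of Kcne2 (-3.86), and in series 32 the difference of -2.73 was likewise smaller than that of Kcne2 (-3.52). The mean was 1012 ± 1125 CPM (SD, n = 3) in Klf9 +/+ and 118.0 ± 194 CPM (SD, n = 3) in Klf9 f/f, with each SD above its mean.

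Sostdc1 encodes a secreted antagonist of bone morphogenetic proteins that also modulates Wnt signaling. The gene (ENSMUSG00000036169) lies on the plus strand of mm9 chromosome 12 from 37040756 to 37045039. The Klf9 +/+ samples had 2.91, 10.7 and 53.8 CPM and the Klf9 f/f samples 0.931, 1.21 and 7.35 CPM. All Klf9 f/f samples but that of series 32 were below all Klf9 +/+ samples. Of the set, this gene kept the closest proportion to the others. The log2 fold change was -2.75 (SE 0.42), with a difference of -2.35 in series 22 and -2.86 in series 32.

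Kl encodes Klotho, a membrane protein that is shed into the cerebrospinal fluid and acts as a coreceptor for a fibroblast growth factor. The gene lies on the plus strand of mm9 chromosome 5 from 151755182 to 151796384. Kl was the member with overlapping genotypes in series 22, where Klf9 +/+ replicates 1 and 2 had 3.21 and 7.95 CPM and Klf9 f/f replicates 1 and 2 had 5.25 and 1.87 CPM. In series 32 it stood at 72.3 CPM in Klf9 +/+ and 14.5 CPM in Klf9 f/f. Its fitted log2 fold change of -1.21 (SE 0.49) was the smallest in size of the 10, but it moved with single samples, to -1.93 without Klf9 f/f replicate 1, -0.64 without Klf9 f/f replicate 3 and -0.65 without Klf9 +/+ replicate 3. Without the series term it was -1.97, larger in size than that of Kcnj13 (-1.56). The Klf9 f/f replicates of series 22 differed by -1.47, more than the difference between genotypes there (-0.68).

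Uptake of folate into the cerebrospinal fluid depends on Folr1, which encodes folate receptor alpha. The gene lies on the minus strand of mm9 chromosome 7 from 109006845 to 109019302. Folr1 stood at 0.526, 5.03 and 47.2 CPM in Klf9 +/+ against 0.214, 0.261 and 5.655 CPM in Klf9 f/f. The Klf9 f/f samples of series 22 held 14 and 13 reads, while Klf9 +/+ replicate 3 held 1444. The log2 fold change was -3.33 (SE 0.67), but the 2 Klf9 +/+ samples of series 22 were 3.15 apart on the same scale.

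The ion channel genes were Clic6, an intracellular chloride channel protein, Kcnj13, the inward rectifier potassium channel Kir7.1, and Kcne2, an accessory subunit of voltage-gated potassium channels. Clic6, on the plus strand of mm9 chromosome 16 from 92485981 to 92541488, stood at 2.04, 8.16 and 95.8 CPM in Klf9 +/+ against 1.11, 1.73 and 11.9 CPM in Klf9 f/f. Kcne2 lies near it on the same chromosome and strand, from 92292634 to 92298374. Kcne2 had 0.243, 4.23 and 27.05 CPM in Klf9 +/+ and 0.0458, 0.101 and 2.32 CPM in Klf9 f/f. Kcne2 had the widest span of the set, with 590.9 times more in the highest than in the lowest sample, but the latter value rests on 3 reads. Its log2 fold change was -4.20 (SE 0.88) and that of Clic6 was -2.28 (SE 0.47).

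Kcnj13 was the steadiest of the 10 genes, on the minus strand of mm9 chromosome 1 from 89282938 to 89291304. It stood at 19.0, 22.5 and 75.2 CPM in Klf9 +/+ against 11.2, 8.65 and 19.95 CPM in Klf9 f/f. The highest level was 8.70 times the lowest, against 30.57 to 590.9 times in the other members. Of its 1270 exonic bases, 623 are shared with Gigyf2 on the opposite strand, and counting without strand cannot tell the reads of the 2 genes apart there. HTSeq sets reads that fit more than 1 gene aside as ambiguous, so reads in these bases may be missing from both counts. Gigyf2 itself stayed between 47.6 and 58.1 CPM in all 6 samples. The log2 fold change of Kcnj13 was -1.35 with the smallest SE of the set, 0.21.

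Otx2 encodes a homeodomain transcription factor required for the formation and upkeep of the choroid plexus, and it lies on the minus strand of mm9 chromosome 14 from 49277354 to 49287319. Its level was 0.708, 1.67 and 11.7 CPM in Klf9 +/+ and 0.305, 0.141 and 1.25 CPM in Klf9 f/f. Read counts ran from 7 to 358. The log2 fold change was -2.70 (SE 0.45), and replicate 2 minus replicate 1 of Klf9 f/f was -0.92 where it was 0.62 for Ttr.

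Calml4 and Krt18 encode parts of the epithelial cell itself. Calml4 is a calmodulin-like protein of microvilli, the fine projections of the apical membrane, and spans mm9 chromosome 9 from 62705911 to 62723725 on the plus strand. It stood at 1.56, 2.24 and 8.40 CPM in Klf9 +/+ against 0.275, 0.362 and 1.34 CPM in Klf9 f/f. Its lowest Klf9 +/+ sample was thus above its highest Klf9 f/f sample, by a narrow margin. Krt18, the type I keratin of simple epithelia, spans chromosome 15 from 101858647 to 101862457 on the plus strand. Krt18 had 0.526, 3.22 and 20.1 CPM in Klf9 +/+ and 0.0763, 0.0804 and 2.32 CPM in Klf9 f/f, with only 5 and 4 reads in the Klf9 f/f samples of series 22. The log2 fold changes were -2.60 (SE 0.32) for Calml4 and -3.82 (SE 0.66) for Krt18.

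**Figure D2:**
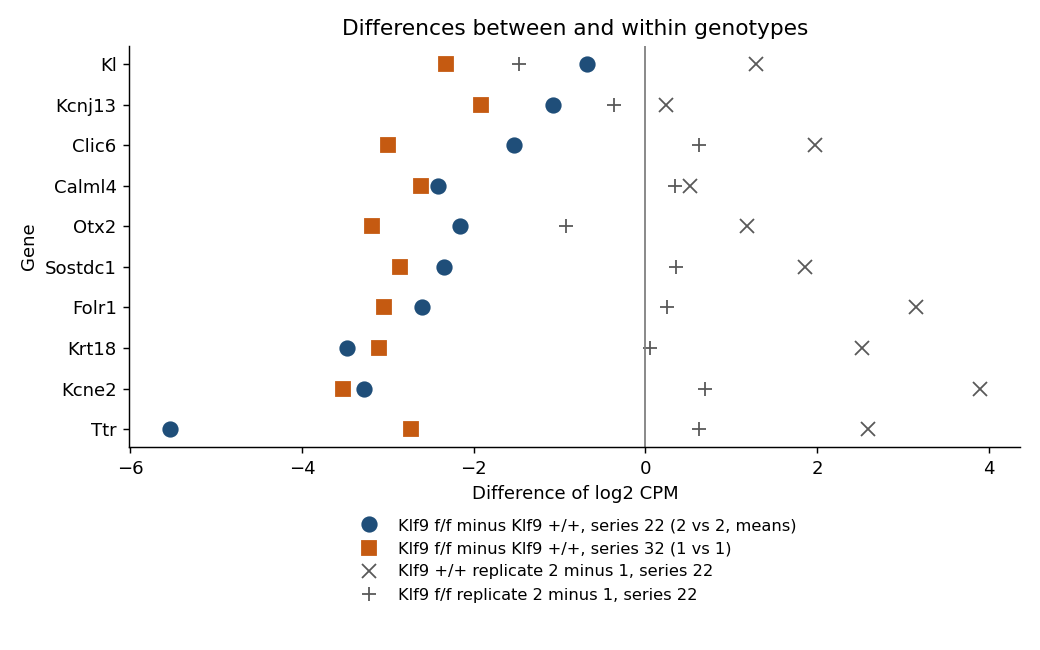
Difference of log2 CPM for each gene, with filled symbols for Klf9 f/f minus Klf9 +/+ in each library series and crosses for replicate 2 minus replicate 1 within a genotype of series 22. All filled symbols lie below 0, from -5.54 to -0.68, while the Klf9 +/+ replicate gaps reach 3.90 and exceed the series 22 difference in size for Folr1, Kl, Clic6 and Kcne2.

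The bases just upstream of the starts of some members were also read for short motifs. RefSeq windows of 250 bases before a start (GRCm38.p6) were held for 6 members, Kl, Kcnj13, Otx2, Kcne2, Calml4 and Krt18, in 10 windows. Otx2 and Kcne2 have more than 1 window each and some Otx2 windows overlap, so the windows are not independent. TAATCC, the core recognised by bicoid-class homeodomain proteins such as Otx2, was searched on both strands and lay in 1 of the 10 windows, against 6.25% of 32851 windows over all genes. The TATA-box letters TATAA lay on either strand in 5 of the 10 windows, from 4 members, against 22.8% of all windows. A match is a string of letters and no shown site. The windows below are shown because they hold the bicoid-class match of Otx2 itself and the TATAA letters nearest the starts of the steadiest channel gene and of the keratin. They read 5′ to 3′ on the gene's strand and end at the base before the start, and capitals mark only the match named here, which for Otx2 is the reverse complement GGATTA beginning 211 bases upstream. In Kcnj13 the capitals hold TATAA on both strands, 30 and 29 bases upstream, and in Krt18 on the gene's strand, 19 bases upstream.
Otx2, chr14:48665110-48665359, minus strand: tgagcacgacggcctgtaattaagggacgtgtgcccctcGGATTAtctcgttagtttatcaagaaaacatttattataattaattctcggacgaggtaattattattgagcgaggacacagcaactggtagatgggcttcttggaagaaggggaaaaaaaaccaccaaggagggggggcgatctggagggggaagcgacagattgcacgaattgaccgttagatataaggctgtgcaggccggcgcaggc
Kcnj13, chr1:87394730-87394979, minus strand: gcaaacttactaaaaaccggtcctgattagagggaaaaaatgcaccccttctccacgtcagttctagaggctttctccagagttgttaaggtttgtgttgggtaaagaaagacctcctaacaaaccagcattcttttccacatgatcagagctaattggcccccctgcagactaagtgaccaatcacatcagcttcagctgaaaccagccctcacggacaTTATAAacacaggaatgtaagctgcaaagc
Krt18, chr15:102027966-102028215, plus strand: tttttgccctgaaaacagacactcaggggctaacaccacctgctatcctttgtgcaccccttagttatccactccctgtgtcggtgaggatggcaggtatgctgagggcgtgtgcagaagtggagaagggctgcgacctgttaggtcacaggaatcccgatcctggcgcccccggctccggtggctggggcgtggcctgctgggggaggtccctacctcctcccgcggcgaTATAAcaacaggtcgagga

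Per length, as reads per kilobase of exon on the CPM scale (RPKM), Ttr was first with a geometric mean of 90.5 over the 6 samples, followed by Kcnj13 with 15.7 and Sostdc1 with 2.80. Kl, Clic6 and Calml4 followed with 1.57, 1.47 and 1.46, and Folr1, Krt18, Kcne2 and Otx2 came last with 0.803, 0.633, 0.462 and 0.280. Ttr exceeded Kcnj13 in only 4 of 6 samples, the other 2 being the Klf9 f/f samples of series 22. Kcnj13 exceeded Sostdc1 in all 6. The length used for Kcnj13 includes the 623 bases shared with Gigyf2, so its RPKM may be too low. Kl exceeded Clic6 in 2 of 6 and Clic6 exceeded Calml4 in 3 of 6, so the order of these neighbours is not set apart from their spread.

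The genes varied less relative to one another than in level. The mean log2 CPM of the 10 genes was 1.22, 3.14 and 5.72 in Klf9 +/+ and -0.34, -0.32 and 2.89 in Klf9 f/f. The median SD of a member's log2 CPM over the 6 samples was 2.27, against 0.316 for all genes tested. When each member was instead taken relative to the mean of the other members in the same sample, the median SD was 0.872, and it was smaller than the SD of the member alone in 9 of 10 genes. Sostdc1 was the tightest with 0.262, ahead of Otx2 with 0.557, Clic6 with 0.587 and Krt18 with 0.669. Kcnj13 was the exception, with 1.08 alone and 1.49 relative to the others. These SDs share the samples and depths of the levels above, and closeness among the genes was part of how they were selected.

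Ttr was a poorer common reference, since the median SD of the 9 ratios to Ttr was 1.84. In reads per 100 Ttr reads, Krt18 ran at 0.483, 0.491 and 0.886 in Klf9 +/+. It ran at 1.67, 1.14 and 0.677 in Klf9 f/f, where the 95% counting intervals of the first pair were 0.537 to 3.93 and 0.308 to 2.94. Kcnj13, by contrast, ran at 17.5, 3.43 and 3.31 reads per 100 Ttr reads in Klf9 +/+ and at 244.7, 122.2 and 5.83 in Klf9 f/f. Kl ran at 2.95, 1.21 and 3.18 in Klf9 +/+ and at 114.7, 26.4 and 4.23 in Klf9 f/f in the same order of replicates. All 9 ratios to Ttr were higher in both Klf9 f/f samples of series 22 than in the Klf9 +/+ samples of that series. They share the Ttr reads, 300 and 352 in these Klf9 f/f samples against 5386 and 37688 in Klf9 +/+, and are not 9 separate observations. For Otx2, Kcne2 and Krt18 some counting intervals overlapped between the genotypes there. The SD of the log2 ratio was largest for Kcnj13 (2.69), Kl (2.44) and Calml4 (2.0), the 3 genes with the smallest SD of their own level. Intervals cover counting error only, and copies made by amplification are not independent molecules.

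**Figure D3:**
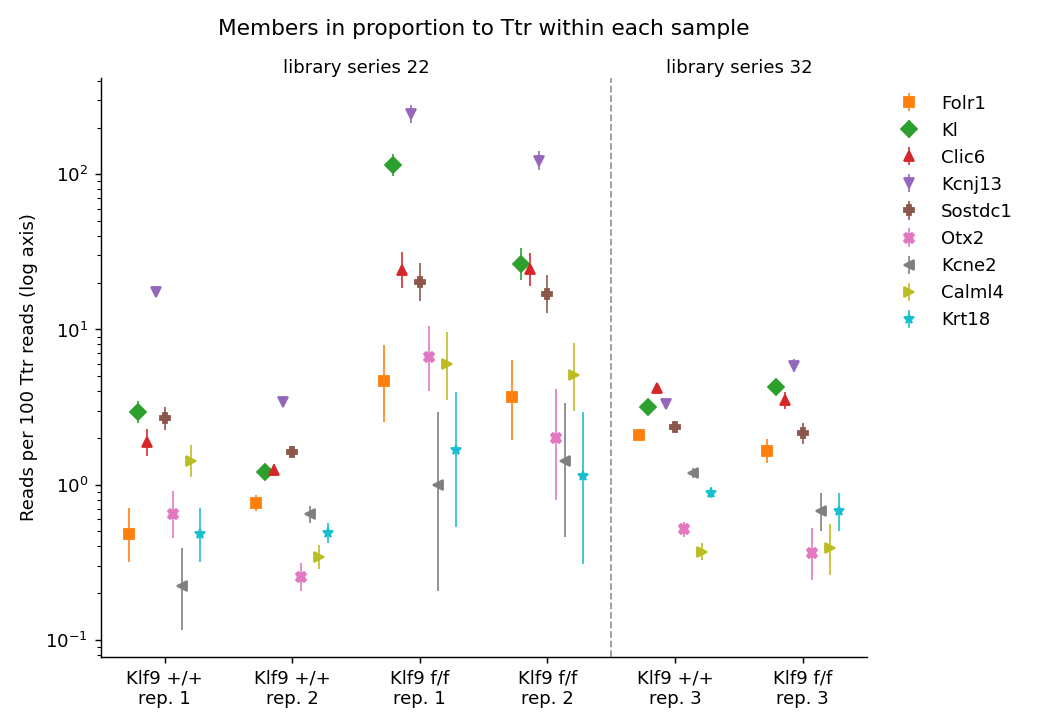
Reads of each of the other 9 genes per 100 reads of Ttr in each sample, on a log axis, with bars for the 95% interval of counting error. In Klf9 f/f replicates 1 and 2, where Ttr had 300 and 352 reads, the points sit higher and their bars are wide, with Kcnj13 at 244.7 and 122.2, while in series 32 Kcnj13 is at 3.31 and 5.83.

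The non-member genes with the most similar pattern were ranked by the root mean square difference in log2 CPM, each gene centred on its own mean, from the mean of the 10 members over the 6 samples. This distance depends on the size of the changes as well as on their shape. The 8 nearest of 14144 genes were 1110059M19Rik (0.459), F5 (0.585), Rbm47 (0.613), Slc16a8 (0.653), Aqp1 (0.717), Epn3 (0.787), Col8a2 (0.806) and Tmem72 (0.871). Some of these rest on few reads in Klf9 f/f replicates 1 and 2, with 1 and 7 for Slc16a8, 1 and 0 for Tmem72. At such counts the prior count added before taking logs weighs on the distance. The median of all genes compared was 2.14, and the members themselves ranged from 0.215 for Sostdc1 to 1.37 for Ttr. F5 (coagulation factor V), Slc16a8 (a lactate transporter), Aqp1 (the apical water channel of the choroid plexus) and Tmem72 were also on the wider choroid plexus list described next. Aqp1 stood at 0.202, 1.10 and 17.7 CPM in Klf9 +/+ against 0.244, 0.181 and 2.45 CPM in Klf9 f/f. Of all genes compared, 39 (0.276%) were as near as the farthest member, and 13 of those were on the wider list.

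A wider list of 34 choroid plexus epithelial genes was written from general knowledge, with earlier results of these data known. It was tested in the fit over all genes with edgeR's quasi-likelihood test, and its counts are not independent of those results. At 1.2-fold and an unadjusted p under 0.05, 18 of 34 were lower in Klf9 f/f and 0 were higher, against 2.5% lower and 1.82% higher of all genes tested. Their median log2 fold change was -0.58, 33 of 34 were negative, and 9 had no overlap of the genotypes within either series, with Klf9 f/f below, against the 5.53% of all genes tested given above. No gene of the list, and no gene at all (0%), had an adjusted p under 0.05 by this test, whereas DESeq2 gave 0 of the list and 39 of all genes. The count of 18 fell to 10 without Klf9 +/+ replicate 2, to 8 without Klf9 f/f replicate 3, to 5 without Klf9 +/+ replicate 3, to 4 in series 22 alone and to 3 without the series term.

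By role, 7 of 12 transport genes were lower, 2 of 8 secreted proteins and enzymes, 4 of 6 receptors and other membrane proteins, 5 of 6 junction, keratin and matrix genes, and 0 of 2 transcription factors. Among transport genes with the highest levels, the copper transporter Slc31a1 changed by -0.37 (SE 0.15) and the sodium-potassium-chloride cotransporter Slc12a2 by -0.34 (SE 0.13) on the log2 scale, and both were called. The sulfate transporter Slc13a4 had -0.56 (SE 0.35) and was not called. Of the secreted products, Enpp2, which makes lysophosphatidic acid, was lower by the same rule with -1.12 (SE 0.37). Igfbp2 and Igf2, a binding protein and a ligand of the insulin-like growth factor system, had -0.36 (SE 0.18) and -0.37 (SE 0.21) and were not called. The prolactin receptor Prlr was called with -1.53 (SE 0.48), the retinol uptake receptor Stra6 with -0.53 (SE 0.17), and the epithelial genes Perp and Spint2 with -0.81 (SE 0.35) and -0.60 (SE 0.26). Col9a3 and the transcription factor Msx1, at -0.06 (SE 0.14) and -0.14 (SE 0.23), were not called.

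The wider list did not follow the 10 genes in every sample. Its mean log2 CPM was 2.22, 3.07 and 4.90 in Klf9 +/+ and 2.29, 1.86 and 3.34 in Klf9 f/f. In series 22 the Klf9 +/+ replicate 1 value was therefore below that of Klf9 f/f replicate 1, where the 10 genes had 1.22 against -0.34. Several genes of the list are also expressed by other brain cells. In the list, 2 genes, Tmem72 and Krt8, had a count of 0 in 1 Klf9 f/f sample each. Krt8, which was called lower, exceeded 1 CPM in Klf9 +/+ only and so passed the filter through that genotype.

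Markers of tissues next to the plexus were counted in the same fit, where 2.5% of all genes tested were called lower. Genes of a list were measured in the same samples, so the counts below are not separate observations. Among 8 ependymal and motile cilia genes, 3 (Tmem212, Ccdc153 and Ak7) were called lower and the median log2 fold change was -0.45, with summed levels of 33.7 to 79.1 CPM in Klf9 +/+ and 41.8 to 47.4 CPM in Klf9 f/f. Those 3 genes exceeded 1 CPM in Klf9 +/+ samples only. They passed the filter through that genotype alone, so their calls could hardly go the other way. The tested genes of this list above 1 CPM in both genotypes were not called. Endothelial genes had a median of -1.02 with 3 of 12 lower and mural genes, of the cells around vessels, -0.97 with 5 of 9 lower. Summed endothelial levels ranged from 166.5 to 412.8 CPM in Klf9 +/+ and from 66.0 to 265.1 CPM in Klf9 f/f. Summed mural levels ranged from 582.9 to 1093 CPM and from 439.2 to 758.9 CPM. Meningeal fibroblast genes had a median of -0.43 with 2 of 10 lower (803.2 to 1628 CPM against 428.1 to 1039 CPM in sum), and blood genes -0.92 with 5 of 5 lower (88.4 to 136.0 CPM against 39.6 to 90.5 CPM in sum). None of these genes had an adjusted p under 0.05 by the quasi-likelihood test, and no marker of these lists had a count of 0 in any sample.

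The order of the samples differed between these lists and the choroid plexus genes. The endothelial and mural means were higher in Klf9 +/+ replicate 1 than in replicate 2 (4.52 against 3.35 and 5.14 against 3.90 on the log2 CPM scale), the opposite of all 10 choroid plexus genes. The ependymal mean was likewise 1.94 in Klf9 +/+ replicate 1 and 1.05 in replicate 2. In series 32 all of these lists were higher in Klf9 +/+ than in Klf9 f/f, as were the 10 genes. The part of these cell types in the difference of the choroid plexus genes was not tested.

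Lists for cells of the dentate gyrus showed smaller differences or the opposite sign. Radial glia genes had a median of 0.12 on the log2 scale and granule neuron genes one of 0.06, with 0 of 10 and 0 of 9 called, and microglia genes one of 0.02 with 0 of 8 called. Astrocyte genes, several of which RGLs also express, had a median of 0.36 with 4 of 11 higher and 0 lower. Of all genes tested, 1.82% were higher and 2.5% lower. The 12 genes that the study names as lowered in Klf9 f/f and that were looked up here had a median of -0.79 with 9 lower. Since the study took them from these samples, this is no independent evidence of their direction. Of those called, Itga10 and Kcnq1 exceeded 1 CPM before TMM scaling in Klf9 +/+ only. They passed the filter through that genotype, so their calls could hardly go the other way. Kcnj8 is counted both here and in the mural list. Distances of the 12 genes from the mean pattern of the choroid plexus genes ran from 1.373 for Emb to 1.98 for Bmp4, against 1.369 for the farthest member, Ttr. A gene with the same order of samples over a smaller range also scores as far. These distances therefore do not show whether the genes follow the same order of samples.

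**Figure D4:**
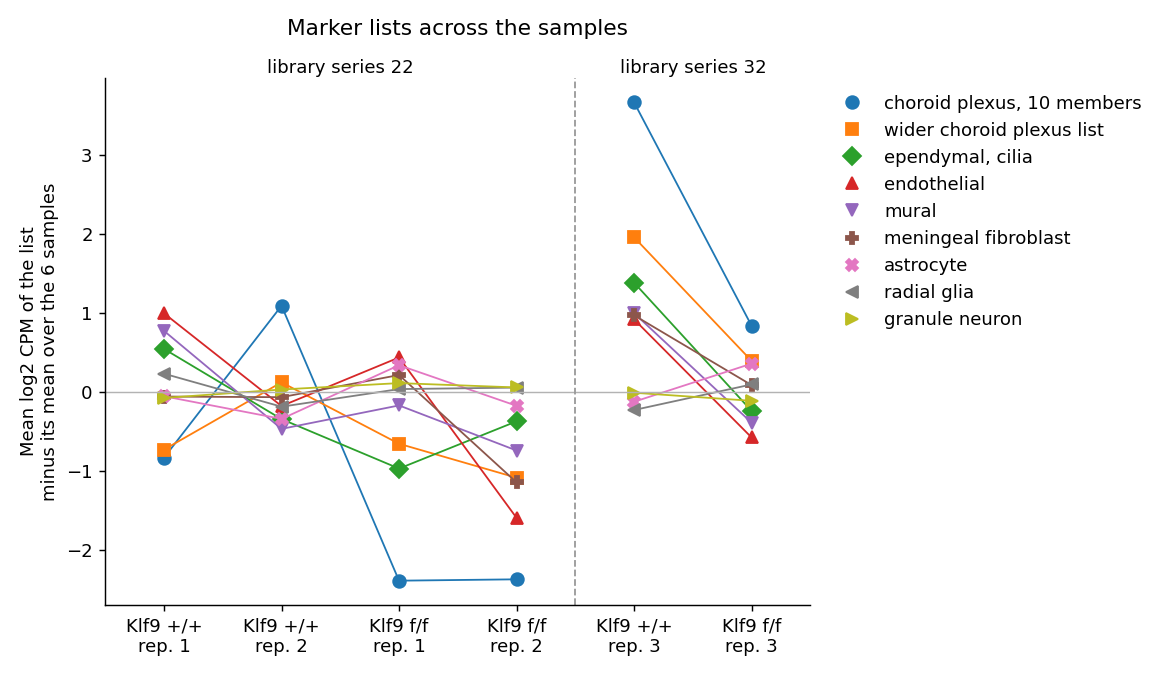
Mean log2 CPM of each marker list in each sample, after subtraction of the list's mean over the 6 samples; lines only join the values of 1 list. The 10 choroid plexus genes span the widest range, from -0.34 to 5.72 before subtraction, while the granule neuron, radial glia and astrocyte lists stay near 0 and the endothelial and mural lists peak in Klf9 +/+ replicates 1 and 3.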

How the data were processed

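Ribosome-bound mRNA was profiled in 3 Klf9 +/+ and 3 Klf9 f/f samples. The authors mapped 50 bp reads with STAR to mouse mm9 and counted them per gene with HTSeq, ignoring strand. The deposited values are raw counts; alignment was not repeated. Of 37620 genes, 37205 were named from the GENCODE M1 annotation (mm9), and 5 HTSeq summary lines were left out. Reads on no gene were 6.33 to 12.2%, ambiguous reads 1.35 to 2.64%.

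Samples were grouped by the genotype in the labels. The library series comes from the library names, and series 32 holds 1 sample per genotype. Samples are separate pools of mice, so p-values do not measure the spread between single mice. They rest on the spread between pools left after the model terms, with each gene's variance drawn toward a trend over all genes tested.

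The filter kept 15056 genes that exceeded 1 CPM in 1 or more samples. After TMM scaling (factors 0.938 to 1.11), the quasi-likelihood F-test of edgeR 4.0.16 (R 4.3.3) was run with library series and genotype as terms and 3 residual degrees of freedom. An SE is the log2 fold change divided by the square root of F. Calls used 1.2-fold and an unadjusted p under 0.05, as in the study's methods, or p after Benjamini-Hochberg adjustment under 0.05. A prior count of 2 was added for log2 CPM. The fit was tested on simulated data. Alternatives were DESeq2 1.42.0, other scalings, filters and tests, each sample left out, and series 22 alone.

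The members and lists were chosen with earlier results of these data known. Named genes were the members, the list genes with the highest mean CPM, and the 8 genes nearest in pattern among those averaging at least 1 CPM. Other list genes (Aqp1 as an example, Tmem72, Krt8, the called ependymal genes, Itga10, Kcnq1, Kcnj8, Slc4a2, Lmx1a, Car12 and Mfrp) were named after their values were seen. The ependymal gene Mia and the radial glia gene Tfap2c found no match. Promoter windows came from a RefSeq table of GRCm38.p6. Figures were drawn with matplotlib 3.10.9.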

Additional observations from a re-analysis of the deposited data

Results flagged for a closer look

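In 5 genes of the wider choroid plexus list, Slc4a2, Lmx1a, Msx1, Car12 and Mfrp, the mean difference between genotypes was positive in series 22 and negative in series 32. Only in Car12 and Mfrp of these were both Klf9 f/f samples of series 22 above both Klf9 +/+ samples as well, and these are the genes singled out here. Car12, a carbonic anhydrase, was higher in both Klf9 f/f samples of series 22 (11.5 and 9.59 CPM) than in both Klf9 +/+ samples (8.41 and 9.13 CPM), a log2 difference of 0.26, and lower in series 32 (14.1 against 35.2 CPM), a difference of -1.32. Mfrp, a frizzled-related membrane protein, differed by 0.24 in series 22 and by -0.47 in series 32, on levels of 0.330 to 2.35 CPM. Its series 22 values rest on only 27 and 20 reads in Klf9 f/f and 17 and 19 in Klf9 +/+. Series 32 has 1 sample per genotype, and the difference between the series was not tested for either gene.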

How the results depend on the processing

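The median of the 10 genes' log2 fold changes stayed between -3.08 and -2.35 when each sample was left out in turn, and all 130 values of single members under the alternatives were negative. Counts of calls moved more. Without the library series term, 3 genes of the wider list were lower, and 163 genes were lower and 50 higher among all tested. In series 22 alone these counts were 4, 202 and 163. With no filter on low counts, 926 genes were lower and 513 higher. With each sample left out, the wider list had 5 to 23 lower genes and 0 higher throughout, and all genes 209 to 719 lower and 130 to 493 higher. At an adjusted p under 0.05, all genes gave 39 with DESeq2, 58 with the likelihood-ratio test, 334 with no filter, 13 in series 22 alone and 0 to 15 with a sample left out, against 0 in the fit reported, and the wider list 15 with no filter, 1 with the likelihood-ratio test and 1 without Klf9 +/+ replicate 1. The median SD of the log2 ratio to Ttr, 1.84, ranged from 1.37 to 2.02 with a sample left out and was 0.872 when each member was set against the mean of the other 9. The cause was not tested. Among 236 alternative values, 29 moved and 0 were reversed in sign. Counts of genes and SDs cannot change sign. The fold changes are those of members chosen with this contrast known. Nothing is therefore read from the lack of reversals. No paired analysis was possible because the labels give no replicate numbers, and the numbers 1 to 3 used here are running numbers in the order of deposit that match no sample of one genotype to one of the other. The fit has 3 residual degrees of freedom, series 32 gives no spread of its own, and Kcne2, Krt18, Otx2, Folr1 and Calml4 rest on 3 to 20 reads in the Klf9 f/f samples of series 22.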
